A study of Mus musculus with 6 samples.

Results

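The 10 genes described here belong to the YAP/TEAD pathway and were measured in ureteric bud cells of the mouse embryo. They were chosen by name, and all 10 were found among the 17189 genes of the count table. Yap1, Wwtr1 and Tead1 encode the transcriptional effectors. Lats2, Amotl2 and Ajuba encode regulators of the effectors. Ccn1, Ccn2, Ankrd1 and Nuak2 are target genes. Their Entrez identifiers in the deposited annotation are 16007 (Ccn1), 14219 (Ccn2), 107765 (Ankrd1), 74137 (Nuak2), 16475 (Ajuba), 56332 (Amotl2), 50523 (Lats2), 22601 (Yap1), 97064 (Wwtr1) and 21676 (Tead1). The names were put together with results of the same comparison in view, so the values of these genes and their calls are a description and support nothing by themselves.

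The Hippo kinases LATS1 and LATS2 phosphorylate the coactivators YAP (gene Yap1) and TAZ (gene Wwtr1) and hold them outside the nucleus. When this phosphorylation is low, YAP and TAZ enter the nucleus and bind DNA through TEAD factors, which recognise the letters GGAATG. Whether YAP and TAZ are in the nucleus depends on stretch, cell shape and contact. In the developing kidney Yap is known to be needed for branching of the ureteric bud, the epithelium that forms the collecting system. ASH2L is a shared subunit of the complexes that methylate lysine 4 of histone H3.

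RNA was sequenced from ureteric bud cells sorted by flow cytometry at E16.5, and labelled as epithelial cells of the intermediate mesoderm. The 3 cKO libraries came from embryos of genotype Hoxb7Cre-GFP+, Ash2l F/F, with both Ash2l alleles floxed. The 3 control libraries came from Hoxb7Cre-GFP+, Ash2l F/+ embryos, which carried the same Cre-GFP transgene and 1 floxed allele. In both groups Cre was driven by Hoxb7 sequences active in the ureteric lineage, and no embryos were treated. The labels call the replicates biological but do not say whether each is 1 embryo or a pool, so p-values reflect only how far these libraries differ, which may be partly technical. In sorted bulk RNA, fewer cells of a type and less RNA per cell cannot be told apart.

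Library totals were 9620235 to 9860475 counts in cKO and 10359475 to 10538314 in controls. Ash2l was at 46.1, 29.7 and 21.4 CPM in cKO libraries (counts scaled to library size with TMM factors), against 189.8, 176 and 159 CPM in controls, and fell (log2 fold change -2.43, SE 0.284, edgeR adjusted p = 0.00786). A single library stood apart. Of 11738 genes that had over 10 counts everywhere else, cKO replicate 3 listed 1453 at 0. The same count was at most 3 for the other libraries. None of the 10 genes was at 0 there, and for 5 of them this library was the lowest of the cKO libraries, against 52.2% of all tested genes. Reads of the Y-linked genes Ddx3y, Uty and Kdm5d were present in each control (95 to 1044 counts) and at 0 in each cKO library, so Y-linked reads and genotype cannot be told apart. The 16 ureteric epithelium markers summed to 7008 to 8056 CPM in cKO and 11808 to 13369 CPM in controls. Of these markers 6 fell in cKO, among them Wnt11, Hoxb7 and Calb1, beside 3.59% of all 13047 tested genes. The call was lost for Hoxb7 without control replicate 3 (edgeR adjusted p = 0.0529), and for Calb1 without cKO replicate 2 (0.0603), control replicate 1 (0.0546) or control replicate 3 (0.0564).

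Promoter sequences are shown first because all the members with a window share a short word. TEAD pathway genes are known partly through TEAD sites near them, so the choice of genes was not independent of this word. RefSeq windows of build GRCm38.p6, from 250 bases before to 50 bases after the start site, were matched for 7 of the 10 genes (Ccn1, Ankrd1, Ajuba, Amotl2, Lats2, Yap1 and Wwtr1). No window was matched for Ccn2, Nuak2 or Tead1, so of the 3 members that rose in cKO only Ankrd1 was searched. Each of the 7 held GGAATG, the TEAD core, on 1 strand or the other. Among all 27025 genes with a window, 16.6% held it, and among the 10463 tested genes with a window, 14.4%. With only the 150 bases before the start, 5 of the 7 held it, against 8.84% of all genes. Of the other pathway lists, the word was in 6 of 10 windows of YAP/TEAD partners and relatives, 3 of 10 of other YAP/TAZ targets (30.0%), 3 of 13 of Hippo kinases and scaffolds (23.1%) and 1 of 9 of other CCN and matricellular genes (11.1%). The stretches before the start are given below, 5′ to 3′ on the gene's strand, with GGAATG or its reverse complement CATTCC in capitals.
Ankrd1 (chr19:36119845-36120094, minus strand): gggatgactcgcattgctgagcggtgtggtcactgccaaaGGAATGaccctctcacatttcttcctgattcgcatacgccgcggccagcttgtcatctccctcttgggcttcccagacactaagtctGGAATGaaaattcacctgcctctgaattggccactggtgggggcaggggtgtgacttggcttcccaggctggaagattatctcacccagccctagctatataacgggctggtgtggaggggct
Ccn1 (chr3:145649986-145650235, minus strand): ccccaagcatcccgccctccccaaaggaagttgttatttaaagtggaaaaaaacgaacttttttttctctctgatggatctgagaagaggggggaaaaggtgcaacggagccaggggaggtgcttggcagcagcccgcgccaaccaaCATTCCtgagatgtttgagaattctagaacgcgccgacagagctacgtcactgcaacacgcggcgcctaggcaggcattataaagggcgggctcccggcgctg
Ajuba (chr14:54577662-54577911, minus strand): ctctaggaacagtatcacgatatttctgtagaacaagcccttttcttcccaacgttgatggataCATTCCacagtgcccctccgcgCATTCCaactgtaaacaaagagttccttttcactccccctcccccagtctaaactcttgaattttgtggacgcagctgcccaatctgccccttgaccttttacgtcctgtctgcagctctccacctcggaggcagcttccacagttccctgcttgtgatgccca
Amotl2 (chr9:102717554-102717803, plus strand): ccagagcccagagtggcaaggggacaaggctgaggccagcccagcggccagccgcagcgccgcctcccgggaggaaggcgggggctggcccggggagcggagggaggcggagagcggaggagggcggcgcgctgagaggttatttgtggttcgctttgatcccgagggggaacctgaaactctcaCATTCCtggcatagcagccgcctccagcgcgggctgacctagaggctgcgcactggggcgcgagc
The 60 bases around the match of the effector genes are given in the same way.
Yap1 (chr9:8004705-8004764, minus strand): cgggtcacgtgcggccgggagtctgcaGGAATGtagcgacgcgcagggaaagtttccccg
Wwtr1 (chr3:57576014-57576073, minus strand): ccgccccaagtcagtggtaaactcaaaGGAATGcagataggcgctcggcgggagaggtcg
Positions are counted from the start site, with negative numbers before it, and give the first base of the match. Ankrd1 held the core as written at -210 and -123, and Ajuba held its reverse complement at -186 and -164. Single matches began at -103 in Ccn1, -65 in Amotl2 and -141 in Yap1. In Wwtr1, with 2 RefSeq starts, the same match lay at -136 or -170. Lats2 also had 2 windows, and 1 of them held the core at 5, after its start. The AP-1 word TGANTCA, a motif often found beside TEAD sites, was in none of these windows and in 8.97% of all genes. A match of letters is a description and not a binding site. Among all tested genes with a window, 60 of 364 that rose in cKO held the core, and 54 of 381 that fell (14.2%).

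**Figure D1:**
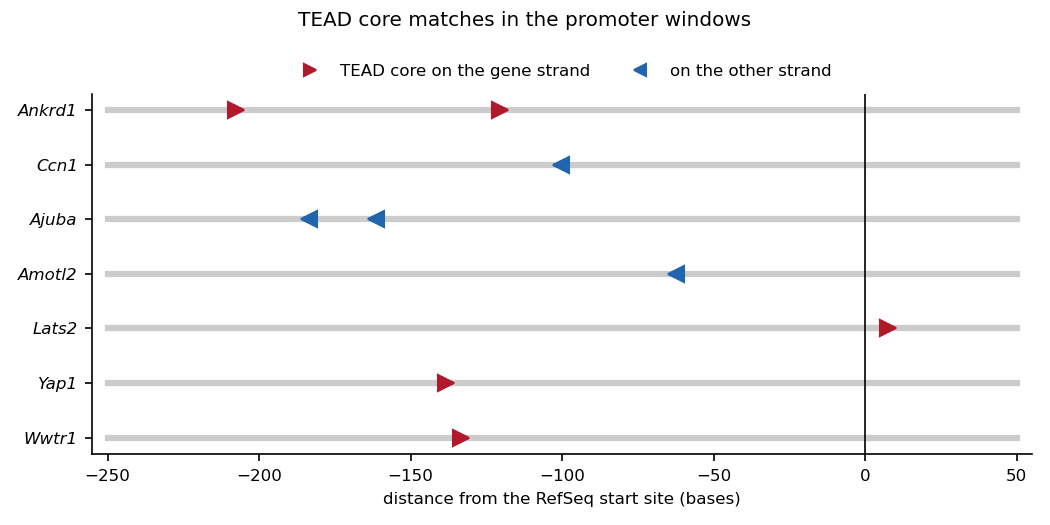
Position of the TEAD core GGAATG in the promoter windows of 7 genes, by distance in bases from the RefSeq start site (line at 0). Triangles point right for the gene strand and left for the other strand; Wwtr1 is drawn from 1 of its 2 starts. Matches lie between -210 and 5.

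Of the 10 genes, 3 rose in cKO and none fell, and 7 were not called. A gene was called at an adjusted p under 0.05 in edgeR's quasi-likelihood test over 13047 genes, of which 7.11% were called, 3.52% rising and 3.59% falling. At an unadjusted p under 0.05, 5 of the 10 were higher and none was lower, beside 1556 higher and 1452 lower of all 13047. In DESeq2 5 rose and none fell, beside 1029 and 1020 of all tested genes. The median log2 fold change of the 10 was 0.82, against -0.04 over all tested genes. In 5 of the 10 (Ccn1, Ccn2, Ankrd1, Nuak2 and Ajuba) every cKO library lay above every control, which held for 16.7% of all tested genes. The contrast was known when the genes were chosen, so nothing is read from these shares.

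Ccn2, the matricellular protein also known as connective tissue growth factor, rose in cKO. Its level was 1015, 798 and 781 CPM in cKO libraries 1, 2 and 3, against 46.3, 85.4 and 114 CPM in controls. The groups were far apart, and the cKO libraries lay closer together, in proportion, than the controls. The means were 865 ± 131 CPM in cKO and 81.9 ± 34.0 CPM in controls (SD, n = 3 each), a ratio of 10.6. On the log2 scale the fitted change was 3.40 (SE 0.334, edgeR adjusted p = 0.0057), and Ccn2 was called without each library in turn (highest adjusted p 0.0372).

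Ccn1, a relative of Ccn2 and also a secreted matricellular protein, was already among the most abundant transcripts. It was at 8741, 6473 and 7433 CPM in cKO, against 2840.3, 4436 and 5435 CPM in controls. Every cKO library was above every control, with cKO replicate 2 and control replicate 3 the nearest to each other. Ccn1 made up 0.868%, 0.663% and 0.759% of all counts in cKO libraries, against 0.279%, 0.442% and 0.529% in controls. By deposited FPKM (per length) it ranked 2 in each cKO library, and 9, 3 and 3 in control replicates 1, 2 and 3. Its log2 fold change was 0.83 (SE 0.240), and Ccn1 was not called (edgeR adjusted p = 0.0926). It was not called without any single library either (0.0882 to 0.254), while DESeq2 called it (0.00148).

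The balance of the CCN pair, taken within each library and so free of library scaling, differed between the groups. The FPKM of Ccn1 was 10.2, 9.61 and 11.3 times that of Ccn2 in cKO libraries, against 72.6, 61.6 and 56.5 times in controls. The ranges are far apart, and no test was made since both genes were chosen on this contrast.

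**Figure D2:**
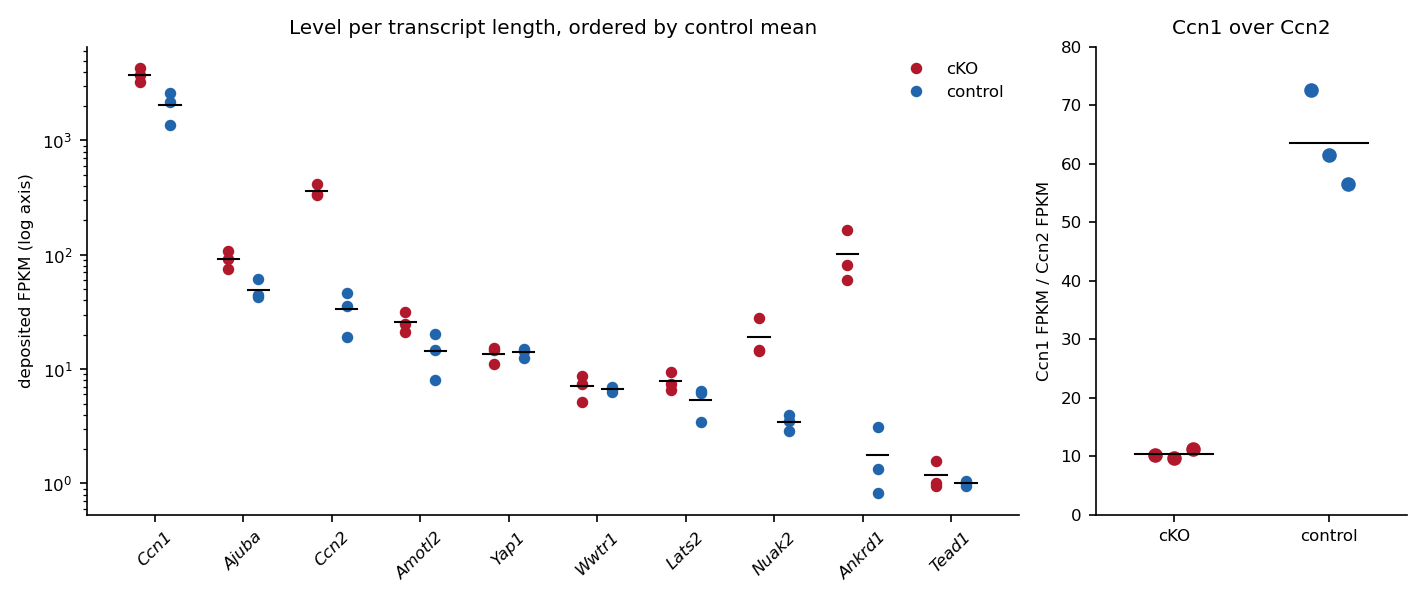
Left, deposited FPKM (log axis) of the 10 genes in each cKO and control library, ordered by control mean; black lines are group means. Right, the ratio of Ccn1 to Ccn2 FPKM, at 9.61 to 11.3 in cKO and 56.5 to 72.6 in controls.

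Ankrd1, an ankyrin repeat protein best known from cardiac muscle and a standard YAP target, was almost silent in control cells. It was at 294, 139.9 and 105 CPM in cKO, against 1.47, 2.38 and 5.67 CPM in controls. These are 2874, 1378 and 1052 counts in cKO, against 15, 25 and 58 in controls, so the control level rests on few counts that were still above the floor of 3. The mean was 179.5 ± 100.4 CPM in cKO and 3.17 ± 2.21 CPM in controls (SD, n = 3 each). Ankrd1 rose by a log2 fold change of 5.82 (SE 0.641, edgeR adjusted p = 0.00661), between 5.26 and 6.52 with 1 library left out, and was called each time.

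Nuak2, a kinase of the AMPK family that promotes actomyosin contractility, rose as well. It was at 47.5, 47.2 and 90.4 CPM in cKO, against 9.52, 11.5 and 13.5 CPM in controls. Every cKO library was above every control, and cKO replicate 3 was the highest. Nuak2 had a fitted log2 difference of 2.42 (SE 0.337, edgeR adjusted p = 0.0122), and of 2.03 without cKO replicate 3 (SE 0.214, adjusted p = 1.79e-05). The call was lost without control replicate 1 (0.0713), 2 (0.0738) or 3 (0.0654), with log2 fold changes of 2.30, 2.41 and 2.55. In those settings 159 of 13625, 177 of 13619 and 121 of 13601 tested genes were called. Its relative Nuak1 was near 0, with 13, 13 and 0 counts in cKO and 15, 11 and 0 in controls.

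Among the regulators, Ajuba, a LIM protein that binds and inhibits LATS kinases, was higher in each cKO library. It was at 322, 255 and 369 CPM in cKO, against 153, 157 and 220.1 CPM in controls. The log2 fold change of 0.84 (SE 0.196) missed the threshold (edgeR adjusted p = 0.0531). Without cKO replicate 3 it rose (0.70, SE 0.159, adjusted p = 0.00677), as it did in DESeq2 and limma-voom. In those settings, in that order, 28.5% of 13660, 2049 of 13047 and 3363 of 13047 tested genes were called. Ajuba was called in only 1 of the 6 tests with a library left out (highest edgeR adjusted p 0.204, without control replicate 2).

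Amotl2, an angiomotin-like scaffold that binds YAP at junctions and is itself a YAP target, was at 155, 118 and 101 CPM in cKO, against 39.7, 72.2 and 102 CPM in controls. The groups met, since control replicate 3 was level with cKO replicate 3. It had a log2 fold change of 0.80 (SE 0.345, edgeR adjusted p = 0.227). Lats2, the YAP kinase that is also a YAP target, was at 41.5, 35.3 and 51.5 CPM in cKO, against 19.4, 35.5 and 34.9 CPM in controls. Its groups overlapped by a narrow margin, and only control replicate 1 was clearly low. It had a log2 fold change of 0.51 (SE 0.298, adjusted p = 0.369).

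The effectors themselves did not pass the test, and their groups overlapped. Yap1 was at 61.4, 62.6 and 45.4 CPM in cKO, against 53.1, 63.5 and 62.2 CPM in controls, with cKO replicate 3 the lowest of the 6. Wwtr1 was at 24.9, 34.7 and 41.0 CPM in cKO, against 32.4, 30.1 and 34.4 CPM in controls, so the cKO libraries lay on both sides of the controls. Tead1, a DNA-binding partner, was at 10.1, 15.2 and 9.28 CPM in cKO, against 10.6, 9.42 and 10.3 CPM in controls. Only cKO replicate 2 stood out. The log2 fold changes were -0.08 (SE 0.185), 0.06 (SE 0.245) and 0.19 (SE 0.419) for Yap1, Wwtr1 and Tead1 (edgeR adjusted p = 0.851, 0.926 and 0.837). The sign turned for each of the 3 when some single libraries were left out, with ranges of -0.16 to 0.05 for Yap1, -0.12 to 0.23 for Wwtr1 and -0.06 to 0.32 for Tead1. A p that misses the threshold does not show that levels were alike.

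**Figure D3:**
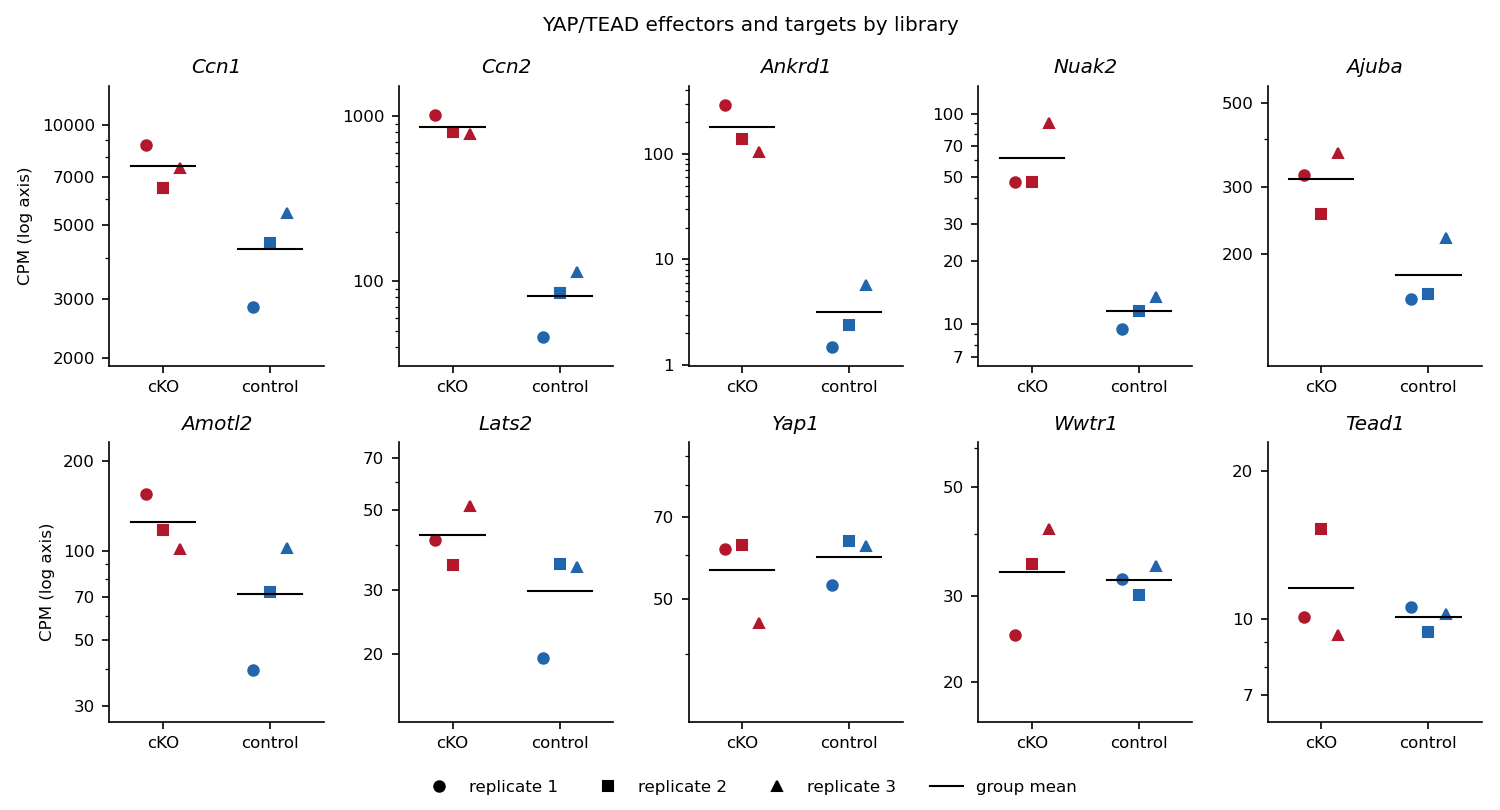
CPM (log axis) of each of the 10 genes in the 3 cKO and 3 control libraries, with marker shape for the replicate number and a black line for the group mean. The groups are apart for Ccn1, Ccn2, Ankrd1, Nuak2 and Ajuba and overlap for Amotl2, Lats2, Yap1, Wwtr1 and Tead1.

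**Figure D4:**
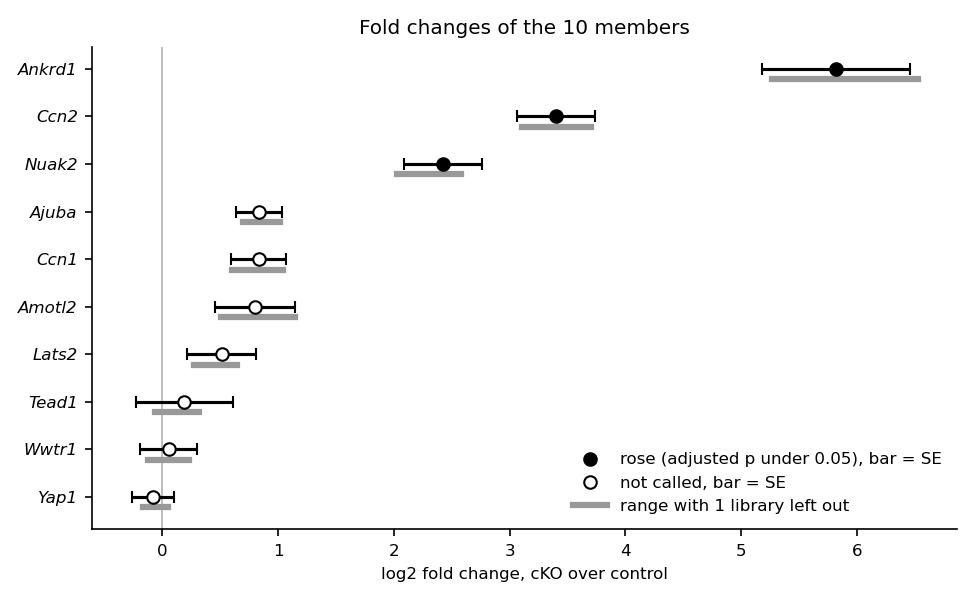
Fitted log2 fold change (cKO over control) of the 10 genes with its SE; filled points rose at an adjusted p under 0.05, and grey bars are the range with 1 library left out. Ankrd1, Ccn2 and Nuak2 stand at 5.82, 3.40 and 2.42, and the other 7 lie between -0.08 and 0.84.

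Per length, Ccn1 led in both groups, with a mean of 3763 FPKM in cKO and 2055 FPKM in controls. In cKO it was followed by Ccn2 (364 FPKM), Ankrd1 (102), Ajuba (91.0), Amotl2 (25.8), Nuak2 (19.0), Yap1 (13.6), Lats2 (7.84), Wwtr1 (7.12) and Tead1 (1.18). The libraries of neighbours overlapped for Ankrd1 with Ajuba, Amotl2 with Nuak2, Nuak2 with Yap1 and Lats2 with Wwtr1. In controls the order after Ccn1 was Ajuba (49.6 FPKM), Ccn2 (33.5), Amotl2 (14.4), Yap1 (14.0), Wwtr1 (6.64), Lats2 (5.34), Nuak2 (3.44), Ankrd1 (1.76) and Tead1 (1.00). There only Ccn1 with Ajuba, and Yap1 with Wwtr1, had neighbours' ranges apart. Ankrd1 stood next to last in controls, and behind only Ccn1 and Ccn2 in cKO. Yap1 was at 2.81, 2.06 and 1.26 times the FPKM of Wwtr1 in cKO libraries, against 1.87, 2.41 and 2.06 times in controls.

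Some of the 10 genes also varied among control libraries. Control replicate 1 was the lowest control for 8 of the 10 genes, all but Wwtr1 and Tead1, and for 35.5% of all tested genes. Control replicate 3 was the highest control for 7 of the 10, and for 33.0% of all tested genes. The highest control was 3.85 times the lowest for Ankrd1, 2.57 times for Amotl2, 2.46 times for Ccn2 and 1.91 times for Ccn1. Of all tested genes, 5.43%, 9.34%, 9.99% and 16.2% had a larger ratio than these 4 genes, and the median was 1.29. For Lats2, Ajuba and Nuak2 the ratio was 1.83, 1.44 and 1.42, and 18.0%, 35.0% and 36.9% of tested genes had a larger one. For Yap1, Wwtr1 and Tead1 the ratio was 1.19, 1.14 and 1.13. Among cKO libraries Ccn1 (1.35) and Ccn2 (1.30) were below the median ratio of 1.6, and Ankrd1 (2.80) was above it.

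Other transcripts were ranked by how closely their profile over the 6 libraries followed that of Ccn1, Ccn2 and Ankrd1, as the root mean square difference of centred log2 CPM among 10845 genes. Nearest to Ccn1 were Ncoa7, a nuclear receptor coactivator (0.105), Smad7, the inhibitory SMAD (0.115), and Tmtc2 (0.132). None of these 3 was called, with log2 fold changes of 0.70, 0.84 and 0.92. Nearest to Ccn2 were Tinag, a basement membrane glycoprotein (0.165), Calca, which encodes calcitonin and its related peptide (0.169), and Gdf15, a stress-induced cytokine (0.257), and all 3 rose. Nearest to Ankrd1 were Cnn1, the smooth muscle protein calponin (0.313), Acta1, skeletal alpha-actin (0.367), and Edn2, endothelin 2 (0.457), and all 3 rose. A profile near that of a gene with a large group difference holds that difference too, so these calls add nothing to the ranking. With single libraries left out, Tinag and Calca were called only without cKO replicate 3 (highest edgeR adjusted p 0.100 and 0.0914). Gdf15 was lost without cKO replicate 2 (0.0508) or control replicate 2 (0.0691), and Edn2 without control replicate 2 (0.0595).

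The kinases and scaffolds upstream of YAP were not called in either direction. Of 16 tested genes none rose and none fell in edgeR, and none had an unadjusted p under 0.05. The core kinase genes Stk3 and Stk4 had log2 fold changes of 0.03 (SE 0.209) and 0.04 (SE 0.177). The adaptor genes Nf2, Sav1, Mob1a and Mob1b had 0.10 (SE 0.189), -0.33 (SE 1.08), -0.52 (SE 0.270) and 0.18 (SE 0.329). Lats1 had 0.02 (SE 0.482), with 18.5 ± 11.6 CPM in cKO and 18.2 ± 3.72 CPM in controls (SD, n = 3 each), and -0.63 without cKO replicate 3. Without that library, where 28.5% of 13660 tested genes were called (13.7% rose and 14.9% fell), Wwc1, which encodes the scaffold KIBRA (0.87, SE 0.216, adjusted p = 0.00841), and the kinase gene Tnik (3.35, SE 0.632, adjusted p = 0.00151) rose. Tnik had 96, 81 and 0 counts in cKO, against 2, 15 and 10 in controls. Wwc1 was at 30.0, 33.6 and 13.6 CPM in cKO, against 14.8, 18.6 and 18.4 CPM in controls. For both genes the library left out was the lowest of all.

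Of 10 tested partners and relatives of the regulators (the other Tead genes, vestigial-like cofactors, angiomotins and LIM proteins) none was called in edgeR, and 1 of them, Tead2, was lower at an unadjusted p under 0.05. DESeq2 called none of the 26 tested genes of this list and the kinase list, and limma-voom with library weights called 4. Of all 13047 tested genes, DESeq2 called 2049 and limma-voom 3363. Tead2 was the most abundant Tead gene per length, at 13.3, 22.4 and 14.4 FPKM in cKO, against 25.9, 25.5 and 29.1 FPKM in controls. Every cKO library was below every control, which held for 20.7% of all tested genes. Its log2 fold change was -0.73 (SE 0.246, adjusted p = 0.137), and it fell without cKO replicate 3 (-0.64, SE 0.211, adjusted p = 0.0371). The 4 Tead genes summed to 17.7, 27.3 and 17.9 FPKM in cKO and 28.4, 29.2 and 34.0 FPKM in controls. Tead3 (-0.40, SE 0.754) and Tead4 (1.09, SE 1.08) were low and uncertain, and Tead4 rose without cKO replicate 3 (1.61, SE 0.552, adjusted p = 0.0434), as did Vgll3, a vestigial-like TEAD cofactor (1.85, SE 0.602, adjusted p = 0.0343). In that setting 13.7% of 13660 tested genes rose and 14.9% fell. Tead4 was not called without any other single library (highest edgeR adjusted p 0.911).

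Among the nearest relatives of the members some were missing from 1 library. Amotl1 and the LIM gene Wtip were at 0 in cKO replicate 3, and Limd1 was at 94.6, 91.2 and 23.3 CPM in cKO libraries, against 90.2, 112 and 91.5 CPM in controls. Their log2 fold changes were -0.25 (SE 1.36), -1.05 (SE 1.42) and -0.49 (SE 0.480), and that of Amotl1 was 0.33 without cKO replicate 3. Amot (1.45, SE 1.01) and Ankrd23, a relative of Ankrd1 (0.80, SE 0.459), were not called.

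Of 14 tested genes from a list of other published YAP/TAZ targets, 1 rose, none fell and 13 were not called. At an unadjusted p under 0.05, 4 were higher and none lower, beside 1556 and 1452 of all 13047 genes, and the median log2 fold change was 0.56. Gadd45a, a growth arrest and DNA damage response gene, was at 123, 104 and 133 CPM in cKO, against 34.6, 46.8 and 48.8 CPM in controls. The groups were apart, with a log2 fold change of 1.47 (SE 0.183, edgeR adjusted p = 0.00905), and the call was lost without control replicate 2 or 3 (highest adjusted p 0.0531). Without cKO replicate 3, 4 rose and none fell, the others being Crim1 (1.55, SE 0.511), Ccdc80 (1.36, SE 0.356) and Nt5e, which encodes the ecto-nucleotidase CD73 (1.96, SE 0.548). In that setting 13.7% of 13660 tested genes rose and 14.9% fell.

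Of 10 tested CCN and matricellular genes other than Ccn1 and Ccn2, 2 rose and none fell, with 4 higher and none lower at an unadjusted p under 0.05 (1556 and 1452 of all 13047). Sparc, a collagen-binding matricellular protein, was at 409.6, 524 and 430.4 CPM in cKO, against 127, 162 and 122 CPM in controls (log2 fold change 1.73, SE 0.155, edgeR adjusted p = 0.00567). It was called without each library in turn. Thbs1, thrombospondin 1 and a known YAP target, was at 266, 209 and 102 CPM in cKO, against 32.4, 56.0 and 49.8 CPM in controls (2.06, SE 0.383, adjusted p = 0.0283). Thbs1 was called in 1 of the 6 tests with a library left out, the one without cKO replicate 3. Ccn3 was low, at 6.54, 6.09 and 8.38 CPM in cKO and 0.687, 0.476 and 0.978 CPM in controls, and missed the threshold (3.27, SE 0.767, adjusted p = 0.0526). Without cKO replicate 3, 5 of 11 tested genes rose (Ccn3, Thbs1, Thbs2, Sparc and Smoc1) and Smoc2, a SPARC-related matrix gene, fell (-0.71, SE 0.197, adjusted p = 0.0222). In that setting 13.7% of all 13660 tested genes rose and 14.9% fell.

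**Figure D5:**
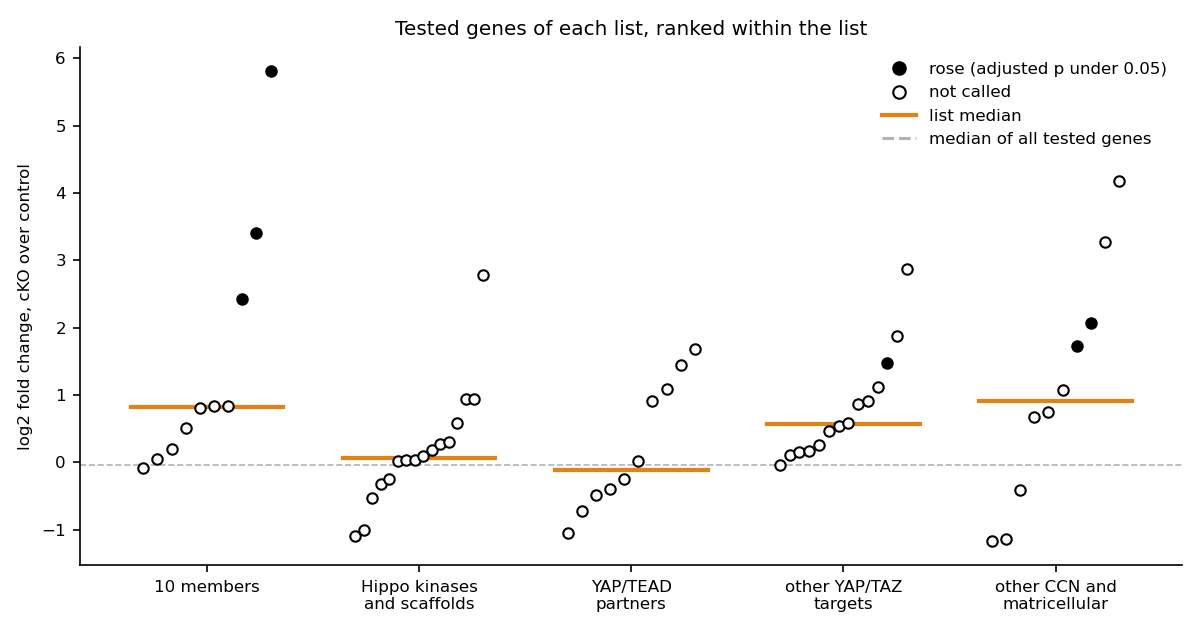
Log2 fold change (cKO over control) of each tested gene in the 10 members and in 4 lists of pathway genes, ranked within each list; filled points rose, open points were not called, orange lines are list medians and the dashed line is the median of all tested genes. Medians are 0.82 for the 10 members, 0.07 for Hippo kinases and scaffolds, -0.12 for YAP/TEAD partners, 0.56 for other YAP/TAZ targets and 0.91 for other CCN and matricellular genes.

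Several smooth muscle markers were higher in cKO, while the pericyte marker Cspg4 was lower. The 10 listed genes summed to 219, 119.9 and 151 CPM in cKO, against 15.6, 17.1 and 11.1 CPM in controls. Of 5 tested, 3 rose and none fell: Cnn1, Tagln and Acta2, all encoding actin cytoskeleton proteins. Of all 13047 tested genes, 3.52% rose and 3.59% fell. Cnn1 was called without each library in turn, while Tagln was lost without control replicate 1 (edgeR adjusted p = 0.0645) or 3 (0.0562), and Acta2 was called only without cKO replicate 3 (0.0551 to 0.0827 otherwise). Cspg4, too low for the test over all libraries, had 0, 1 and 0 counts in cKO and 26, 20 and 5 in controls. Without cKO replicate 3, 6 of 8 tested genes of the list rose, and Cspg4 fell (log2 fold change -4.72, SE 1.47, adjusted p = 0.028). In that setting 13.7% of 13660 tested genes rose and 14.9% fell. Rgs5, another pericyte gene, overlapped between groups, with 5.31, 8.23 and 31.0 CPM in cKO and 4.42, 3.52 and 5.67 CPM in controls. Myh11, the defining myosin of smooth muscle, had 6, 0 and 139 counts in cKO and 0, 6 and 2 in controls, and Des, desmin, had at most 11 counts in any library. Actg2 had 19, 10 and 0 counts in cKO and was at 0 in each control. The 11 stroma genes in the table summed to 15.7, 31.8 and 4.59 CPM in cKO and 15.0, 14.3 and 33.6 CPM in controls, with no call among 8 tested (none at an unadjusted p under 0.05). In cKO replicate 3, the lowest, 9 of the 11 were at 0. Foxd1, a defining stroma gene, was at 0 in every library but control replicate 3, which had 5 counts. The endothelial list summed to 51.0 to 70.6 CPM in cKO and 84.9 to 98.2 CPM in controls. Egfl7 fell, a call lost without control replicate 1 (0.0547) or 3 (0.0582). It averaged 14.8 ± 2.06 CPM in cKO and 53.3 ± 5.18 CPM in controls (SD, n = 3 each), the largest part of the control sum. Without cKO replicate 3, 1 of 7 tested genes of the list rose, Tek (3.85, SE 1.17, edgeR adjusted p = 0.0249), and 1 fell, Egfl7. Tek had 29, 29 and 0 counts in cKO and 0, 6 and 0 in controls. Tie1 had 14, 0 and 183 counts in cKO and 0, 6 and 0 in controls, and Pecam1 had at most 11 in any library. The nephron list summed to 479 to 518 CPM in cKO and 371 to 437 CPM in controls, with a rise of Jag1 (edgeR adjusted p = 0.0496). Jag1 averaged 227 ± 69.4 CPM in cKO and 99.8 ± 21.2 CPM in controls (SD, n = 3 each), and was called only without cKO replicate 3 when single libraries were left out (highest adjusted p 0.192). At an unadjusted p under 0.05, 4 of 8 tested genes of the list were higher (Jag1, Cited1, Slc34a1 and Lrp2) and 1 was lower (Lhx1). Of all 13047 genes, 1556 were higher and 1452 lower. Pax8 and Lhx1 were not called over all libraries. Without cKO replicate 3, 4 of the 8 rose and 2 fell. Those 2 were Pax8 (-0.50, SE 0.109, edgeR adjusted p = 0.00371) and Lhx1 (-0.68, SE 0.171, adjusted p = 0.00962). Pax8 averaged 204 ± 53.0 CPM in cKO and 244 ± 20.5 CPM in controls, and Lhx1 23.1 ± 10.5 CPM in cKO and 46.2 ± 1.79 CPM in controls (SD, n = 3 each). Blood and immune genes summed to 44.3, 85.9 and 63.6 CPM in cKO and 42.1, 53.0 and 422 CPM in controls, with no call among 6 tested (none at an unadjusted p under 0.05). In control replicate 3 the globin genes Hba-a1 and Hbb-bs made up 253 and 94.4 CPM of that sum. The part of these cells in the levels of the targets was not tested.

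The deposited annotation placed 6 of the 10 genes in the Hippo signalling pathway of KEGG (Ccn2, Ajuba, Lats2, Yap1, Wwtr1 and Tead1). Of 131 tested genes with that annotation, read after the values were seen, 7 rose and 5 fell, with a median log2 fold change of -0.06. Of all 13047 tested genes, 3.52% rose and 3.59% fell. The term also holds Wnt and BMP pathway genes, and the calls besides Ccn2 were mostly theirs or of the cell cycle, such as Wnt6 (2.95, SE 0.258), Bmp4 (2.52, SE 0.402), Ccnd2 (1.51, SE 0.139) and Wnt11 (-1.67, SE 0.105). Ccnd1 also rose (0.55, SE 0.0874). Among the other calls, Bbc3 rose (1.58, SE 0.217) and Birc5 fell (-1.77, SE 0.192). Ccnd1, Bbc3 and Birc5 were not in the list of other published YAP/TAZ targets above, so its counts leave them out.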

How the data were processed

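The authors deposited raw read counts per gene and FPKM for 6 libraries. HISAT2, HTSeq, Cufflinks, DESeq and build GRCm39 are named per the submitters' processing notes, with no version and no role. Per the labels' protocols, libraries kept strand; the setting for counting was not given in the sources used here. Overlapping antisense reads may therefore be included. The deposited FPKM values equal the counts divided by a gene length and a library factor (largest relative deviation 8.65e-08 over 10613 genes), so they were used only for levels per length and within-library ratios.

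Counts were tested with edgeR 4.0.16 in R 4.3.3 (filterByExpr, 13047 genes; TMM factors; robust quasi-likelihood F-test; group as the only term; Benjamini-Hochberg adjustment over all tested genes; threshold 0.05). The SE is the log2 fold change divided by the square root of F. Alternatives were DESeq2 1.42.0, voom with library weights in limma 3.58.1, other scaling and filters, a replicate block, and each library left out. Steps were tested on simulated data. The members, lists and naming rule were chosen with earlier results of these data known. The rule names Ash2l, all members, their relatives, up to 4 called genes per list and direction (3 per cell type list), and the 3 nearest profiles of Ccn1, Ccn2 and Ankrd1 among genes averaging 2 or more in log2 CPM (prior count 2). Other genes were named after their values were seen. No replicates were merged, since counts within a group varied beyond sampling noise (chi-square over its degrees of freedom 9.9 to 71.7). The floor of 3 counts covers counting error only. Promoters came from a RefSeq table of build GRCm38.p6, and windows on chr18 were left out. Gene coordinates were not used. A comparison of protein sequences was planned and not made. Figures were drawn with matplotlib 3.10.9.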

Additional observations from a re-analysis of the deposited data

How the results depend on the processing

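Over all tested genes, 928 were called. The number was 2049 in DESeq2, 3363 with limma-voom and library weights, 23 with the replicate block, and 121 to 3897 with 1 library left out, the highest without cKO replicate 3. For the 10 YAP/TEAD genes the 3 calls became 5 in DESeq2 and 0 with the replicate block, and 2 to 4 with 1 library left out. The lowest edgeR adjusted p of these 3 genes under the block was 0.0554, where Ccn2 had a log2 fold change of 3.47 and Ankrd1 5.77. For Hippo pathway genes the count of 0 became 4 with limma-voom and 0 to 5 with 1 library left out. For other YAP/TAZ targets 1 call became 3 in DESeq2, 4 with limma-voom, 0 with the block and 0 to 4 with 1 library left out. For other CCN and matricellular genes 2 calls became 4 in DESeq2, 5 with limma-voom, 1 with the block and 1 to 6 with 1 library left out. The cause of these shifts was not tested.

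Signs turned with limma-voom for Yap1 (0.0363), Wwtr1 (-0.10), Lats1 (-0.58) and Amotl1 (0.12), and for Lats1 with the block (-0.13). With 1 library left out the ranges were -0.16 to 0.0472 for Yap1, -0.12 to 0.23 for Wwtr1, -0.0598 to 0.32 for Tead1, -0.52 to 0.73 for Nuak1, -0.63 to 0.28 for Lats1 and -0.78 to 0.33 for Amotl1. The labels do not say whether same-numbered libraries were paired. Their deviations from the group means correlated at -0.022, 0.025 and -0.00145 across genes, which does not settle it. The planned stricter filter (1 CPM in 3 libraries) kept the same 13047 genes. Ajuba was added to the calls, making 4 of the 10 genes, with no low-count filter, with limma-voom, and with a filter at 5 CPM chosen after seeing the data. Ankrd1 in controls rests on 15 to 58 counts. Without cKO replicate 3, which had 0 counts for Wtip and 5 for Tead4, the SE was 0.561 for Wtip and 0.552 for Tead4, against 1.42 and 1.08 with all libraries.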
